A study of Homo sapiens with 3 samples.

Results

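The AP-1 and early growth response factors described here are 10 genes, FOS, FOSB, FOSL1, FOSL2, JUN, JUNB, JUND, ATF3, EGR1 and IER2, of 43913 gene symbols in the counts. They were taken by symbol, and all 10 had transcripts in each library. Their RNA was counted by Drop-seq, which captures single cells in droplets with barcoded beads and counts RNA molecules by unique molecular identifiers (UMIs). Each of the 3 conditions, none with any treatment, was sequenced as 1 library: the established multiple myeloma line MM.1S (B lymphoblasts) grown alone, the established bone marrow stromal line HS-5 grown alone, and both lines after 4 h together. Each cell type is represented by 1 cell line, and the libraries have no replicates, so no test was made and every interval covers counting error only.

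AP-1 is a dimer of a FOS family protein with a JUN family protein, or of JUN family proteins with each other, that binds DNA through basic leucine zippers. FOS, FOSB, JUN, JUNB, ATF3, EGR1 and IER2 are immediate early genes. Growth factors, cytokines, adhesion and stress switch them on within minutes through kinases and without new protein synthesis, and their RNA is short-lived, whereas FOSL1 and FOSL2 follow later and JUND is present in most resting cells. In stromal cells AP-1 drives genes for matrix proteases and cytokines, and in B-lineage cells the JUN proteins also pair with BATF and MAF family factors.

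Many of these genes are switched on through a cyclic AMP response element, bound by CREB and ATF factors, whose core is TGACG. The 250 bases before the start are shown for FOS and JUNB, which differed most between coculture and monoculture among factors with a mean of at least 10 CPM, for FOSB, the closest relative of FOS, and for EGR1, the early growth response gene, whose promoter held the most kinds of motif. Sequences are from RefSeq (GRCh38.p14) and capitals mark TGACG, or its complement CGTCA where the core lies on the other strand. They cover chr14:75278578-75278827 for FOS, chr19:45467746-45467995 for FOSB, chr19:12791236-12791485 for JUNB and chr5:138465229-138465478 for EGR1, all on the plus strand.
FOS: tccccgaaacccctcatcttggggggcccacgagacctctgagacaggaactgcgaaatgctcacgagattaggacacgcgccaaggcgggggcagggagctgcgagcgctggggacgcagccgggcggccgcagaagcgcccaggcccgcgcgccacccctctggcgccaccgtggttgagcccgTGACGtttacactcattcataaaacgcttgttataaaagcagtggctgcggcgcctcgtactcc
FOSB: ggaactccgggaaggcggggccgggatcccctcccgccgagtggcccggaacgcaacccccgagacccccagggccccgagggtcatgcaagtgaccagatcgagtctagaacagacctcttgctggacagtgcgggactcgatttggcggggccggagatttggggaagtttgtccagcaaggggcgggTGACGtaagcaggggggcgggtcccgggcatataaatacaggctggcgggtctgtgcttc
JUNB: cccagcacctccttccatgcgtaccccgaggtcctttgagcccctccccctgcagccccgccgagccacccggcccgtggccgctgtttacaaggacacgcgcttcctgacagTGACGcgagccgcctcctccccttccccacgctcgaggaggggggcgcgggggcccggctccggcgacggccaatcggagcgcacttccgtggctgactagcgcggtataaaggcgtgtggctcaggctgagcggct
EGR1: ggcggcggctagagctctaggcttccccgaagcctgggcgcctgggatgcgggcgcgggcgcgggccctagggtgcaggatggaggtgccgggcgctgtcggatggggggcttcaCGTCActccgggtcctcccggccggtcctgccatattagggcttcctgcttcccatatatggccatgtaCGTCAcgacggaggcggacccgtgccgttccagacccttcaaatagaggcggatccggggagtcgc

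The core began 64 bases before the start in FOS, 60 in FOSB and 137 in JUNB, and it occurred 135 and 66 bases before the start in EGR1. The table of promoters matched 9 of the genes with 10 starts, with no entry for FOSL1 and 2 starts for ATF3. TGACG on either strand was found at 8 of these 10 starts, all but those of ATF3, and in 21.2% of all 35116 promoters of the same length. GC-rich promoters hold it more often, 27.4% of the 16148 with at least 60% G and C. The 2 ATF3 windows held 49.2% and 44.8% G and C, and any other start of ATF3 was not searched. The full element TGACGTCA, which contains the core on both strands, was found in JUND alone of these genes and in 1.65% of all promoters. TGANTCA, the AP-1 site itself, was at none of the 10 starts and in 6.57% of all promoters. The CArG box of serum response factor (1.16% of all promoters), the EGR1 site GCGNGGGCG (8.42%) and the STAT site TTCNNNGAA (6.57%) each occurred among these genes in EGR1 alone. A match describes letters in this window and not a bound site.

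After cells with under 200 detected genes were removed, coculture cells were assigned to a line by 128 MM.1S genes and 315 HS-5 genes that differed at least 50-fold between the monocultures, none of them a gene described here. This gave 3947 MM.1S cells in monoculture and 1633 in coculture, and for HS-5 3732 cells alone and 2108 in coculture, with 113 mixed droplets left out (2.93% of coculture cells). The sum of 10 plasma cell markers fitted the labels, at 9654 and 6497 CPM (UMIs per 1000000) in MM.1S cells against 144 and 174 CPM in HS-5 cells. JCHAIN (6664 CPM) and MZB1 (2526 CPM) made up most of it in MM.1S monoculture. Of 7 past 10 CPM, 6 were at least 2-fold lower in HS-5 monoculture. SDC1 was higher there, at 135 CPM against 38.1 CPM in MM.1S monoculture. The sum of 10 stromal markers separated the lines less (10436 and 12921 CPM in HS-5 cells, 5469 and 3648 CPM in MM.1S cells). Between the monocultures 6 of the 10 were at least 2-fold higher in HS-5, and CAV1 was at 457 CPM in MM.1S and 356 CPM in HS-5. Collagen COL1A1 was at 498 and 613 CPM in HS-5 cells and at 1.63 and 8.31 CPM in MM.1S cells. MM.1S cells held a median of 2201 UMIs alone but 670 in coculture, against 971.5 and 957 UMIs in HS-5 cells. In MM.1S cells the share of mitochondrial UMIs was 6.82% alone and 4.04% in coculture, and that of ribosomal protein genes 18.8% and 12%. Ratios recomputed by depth and without these genes in the totals are given below, and the part of these shifts in the MM.1S differences was otherwise not tested. Between 39 and 76 barcodes were shared by any pair of libraries.

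The levels below are CPM of the summed UMIs of a line's cells with exact Poisson 95% intervals. With 3' counting they compare 1 gene between cell populations and not genes with each other. Folds are ratios of CPM with exact 95% intervals, log2 ratios have a pseudocount of 1 CPM, and a gene was counted as higher or lower past 2-fold where its mean reached 10 CPM. Shares of cells with a UMI are given after every cell was thinned to 1000 UMIs, which kept 3870 MM.1S cells in monoculture but only 378 in coculture, and 1802 and 1002 HS-5 cells.

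Of the factors with a mean of at least 10 CPM, JUNB differed most in MM.1S cells. JUNB (chromosome 19, 12791496 to 12793315, plus strand, GRCh38 in GENCODE 29) encodes a JUN protein that often restrains JUN and is induced by cytokines. Its level was 39.2 CPM in MM.1S monoculture (35.5 to 43.2, 409 UMIs), 194 CPM in MM.1S cells in coculture (171 to 220, 257 UMIs), 44.4 CPM in HS-5 monoculture (39.3 to 50) and 45.1 CPM in cocultured HS-5 cells (37.1 to 54.2). The MM.1S cells in coculture stood above the other 3 populations, whose intervals overlapped. The difference was 4.95-fold (4.22 to 5.81), a log2 ratio of 2.28, or 2.04 above the median of all genes, and JUNB was the 127th highest of 7832 genes. In HS-5 the ratio was 1.01-fold (0.807 to 1.27).

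The JUNB difference was also seen as a larger share of cells. After thinning, 16.7% of 378 MM.1S cells in coculture had a JUNB UMI (exact Clopper-Pearson 13.1 to 20.8%) against 3.54% of 3870 in monoculture (2.98 to 4.17%). The unthinned shares were 14.1% and 9.22%. HS-5 cells had 4.27% alone and 3.59% in coculture, and free RNA from HS-5 cells came to an estimated 0.794 CPM of JUNB in the MM.1S cells of the coculture. The variance of JUNB over the thinned MM.1S cells in coculture was 0.97 times its mean, about what counting alone gives. The level was high at every depth, with 223 CPM in coculture cells under 500 UMIs, 211 from 500, 167 from 1000 and 172 from 2000 UMIs, against 54.8, 44.0 and 37.6 CPM in the same 3 deeper ranges of the monoculture. No MM.1S monoculture cell had under 500 UMIs.

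JUNB overlaps HOOK2 on the opposite strand, and whether the counting used strand is not given in the sources used here, so reads of the overlap cannot be assigned with certainty. HOOK2 itself was at 6.52, 18.9, 4.56 and 4.83 CPM in MM.1S alone and in coculture and in HS-5 alone and in coculture.

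The 2 other JUN genes differed less in MM.1S cells. JUND (chromosome 19, 18279760 to 18281622, minus strand), the JUN protein of resting cells, was at 57.0 CPM (52.5 to 61.8) alone and 109 CPM (91.8 to 128) in coculture, a 1.91-fold difference (1.58 to 2.29) that did not pass 2-fold. Its share of thinned cells was 5.89% (5.17 to 6.68%) alone and 8.20% (5.64 to 11.4%) in coculture, with intervals that overlap. JUN (chromosome 1, 58780788 to 58784327, minus strand), the main transactivating partner of FOS, was at 63.6 CPM (58.9 to 68.7) and 88.4 CPM (73.1 to 106), a ratio of 1.39-fold (1.13 to 1.69). This JUN ratio varied with the depth of the cells. JUN was at 179 CPM in coculture cells under 500 UMIs, and its log2 ratio was -0.23 over cells of 500 to 1500 UMIs and 0.11 over cells of at least 1000 UMIs, a setting chosen after seeing the data. The thinned shares of JUN were 5.92% and 5.82%, so no difference in JUN is read from these cells.

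In HS-5 monoculture JUN and JUND, but not JUNB, were higher than in MM.1S monoculture, and each of the 3 differed by under 2-fold between HS-5 alone and in coculture. In coculture the JUND intervals of the lines overlapped. JUN was at 292 CPM alone (278 to 305, 1791 UMIs) and 262 CPM in coculture (243 to 283), 4.58-fold (4.19 to 5.02) above MM.1S between the monocultures, and 23.6% and 22.5% of thinned HS-5 cells had a UMI. JUND was at 139 CPM alone (130 to 148) and 117 CPM in coculture (104 to 131), 2.43-fold (2.19 to 2.71) above MM.1S between the monocultures. With median-of-ratios size factors this JUND log2 ratio of 1.27 was 0.79, short of 2-fold. Over cells of at least 1000 UMIs, a setting chosen after seeing the data, it was 1.09. In monoculture cells from 2000 UMIs JUND was at 101 CPM in HS-5 and 55.8 CPM in MM.1S. JUNB did not differ between the lines alone beyond counting error (1.13-fold, 0.969 to 1.32), and its log2 ratio of 0.18 was -0.29 with those size factors.

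FOS was the factor that differed most in HS-5 cells. FOS (chromosome 14, 75278774 to 75282230, plus strand) encodes the founding partner of JUN and is among the most quickly induced and decayed of RNAs. FOS was at 33.9 CPM in HS-5 monoculture (29.4 to 38.8, 208 UMIs) and 3.62 CPM in cocultured HS-5 cells (1.66 to 6.88, 9 UMIs), and at 30.3 CPM (27.0 to 33.8) and 45.3 CPM (34.6 to 58.4) in MM.1S cells alone and in coculture. The HS-5 cells in coculture stood below the other 3 populations. Their level was 9.35-fold lower than in HS-5 monoculture (4.83 to 20.7), a log2 ratio of -2.91, the 2nd lowest of 8811 genes.

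Fewer HS-5 cells were positive for FOS in coculture. A FOS UMI was present in 167 of 3732 cells alone (4.47%) and in 9 of 2108 in coculture (0.427%), each of these 9 with 1 UMI, at nearly the same median depth. After thinning the shares were 2.33% (1.68 to 3.14%) and 0.499% (0.162 to 1.16%). Free RNA from MM.1S cells came to an estimated 0.373 CPM of FOS in the HS-5 cells of the coculture. In MM.1S cells the FOS ratio of 1.5-fold (1.12 to 1.98) also varied with depth. FOS was at 78.1 CPM in coculture cells under 500 UMIs, at 18.3 CPM from 1000 to under 2000 UMIs and at 52.4 CPM from 2000 UMIs, and the log2 ratio over cells of at least 1000 UMIs was -0.19. The thinned shares were 2.79% and 2.65%. Between the monocultures FOS did not differ beyond counting error (1.12-fold, 0.934 to 1.34), and its log2 ratio of 0.16 was -0.31 with median-of-ratios size factors.

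FOSB (chromosome 19, 45467995 to 45475179, plus strand), the closest relative of FOS, was low throughout, at 4.98 CPM (52 UMIs) and 2.27 CPM (3 UMIs) in MM.1S cells alone and in coculture and at 8.14 CPM (50 UMIs) and 2.42 CPM (6 UMIs) in HS-5 cells. In HS-5 its level was 3.37-fold lower in coculture (1.44 to 9.62), in the direction of FOS, and its mean lay under 10 CPM. The MM.1S ratio of 0.455-fold had an interval of 0.0909 to 1.41, and 0 of 378 thinned cells in coculture had a UMI, so the share could be as high as 0.794% (a limit of 3 counts) or 0.971% (exact Clopper-Pearson). FOSB overlaps ERCC1 on the opposite strand, which was at 34.8 and 22.9 CPM in HS-5 cells alone and in coculture.

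The late FOS genes were higher in the stromal line. FOSL1 (chromosome 11, 65892049 to 65900573, minus strand), which encodes FRA-1 and is raised in spreading and migrating cells, was at 1.15 CPM in MM.1S monoculture (0.594 to 2.01, 12 UMIs), 6.05 CPM in MM.1S cells in coculture (2.61 to 11.9, 8 UMIs), 115 CPM in HS-5 monoculture (106 to 124, 705 UMIs) and 93.4 CPM in cocultured HS-5 cells (81.8 to 106, 232 UMIs). The populations of the 2 lines did not overlap, and between the monocultures the difference was 99.8-fold (56.8 to 194). FOSL1 UMIs were present in 10.2% of thinned HS-5 cells alone (8.80 to 11.6%) and in 0.129% of MM.1S cells (0.0420 to 0.301%). The FOSL1 ratio of 5.26-fold in MM.1S cells in coculture (1.86 to 14.0) rests on 8 UMIs, of a level at which 1.65 CPM was the estimated free RNA from HS-5 cells. In HS-5 the coculture had 0.814-fold the monoculture level (0.698 to 0.945).

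FOSL2 (chromosome 2, 28392448 to 28417312, plus strand), which encodes FRA-2, was at 7.19 CPM (5.65 to 9.01) and 13.6 CPM (8.06 to 21.5) in MM.1S cells alone and in coculture, with overlapping intervals, and at 40.9 CPM (36.0 to 46.2) and 31.0 CPM (24.5 to 38.7) in HS-5 cells. HS-5 exceeded MM.1S between the monocultures by 5.68-fold (4.38 to 7.46). In HS-5 monoculture the variance of FOSL2 over thinned cells was 1.38 times its mean, with up to 6 UMIs in 1 cell. FOSL2 overlaps an antisense gene and a sense intronic gene, each at under 3 CPM in all 4 populations.

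EGR1 (chromosome 5, 138465490 to 138469315, plus strand), a zinc finger factor induced through serum response factor, was at 22.0 CPM in HS-5 monoculture (18.4 to 26.0, 135 UMIs), 15.7 CPM in cocultured HS-5 cells (11.2 to 21.5, 39 UMIs), 4.89 CPM in MM.1S monoculture (3.64 to 6.43, 51 UMIs) and 1.51 CPM in MM.1S cells in coculture (0.183 to 5.46, 2 UMIs). HS-5 monoculture exceeded MM.1S monoculture by 4.50-fold (3.24 to 6.33). The level in HS-5 monoculture varied with depth, at 94.7 CPM in cells under 500 UMIs (9 UMIs of EGR1) and 14.2 CPM from 2000 UMIs. MM.1S monoculture was at 4.79 CPM from 2000 UMIs. The log2 ratio of 1.96 between the lines was 1.96 over cells of 500 to 1500 UMIs. Over cells of at least 1000 UMIs, a setting chosen after seeing the data, it was 1.48. In HS-5 the interval of the coculture ratio held 1 (0.714-fold, 0.487 to 1.03), though over cells of 500 to 1500 UMIs the log2 ratio was -1.26, past 2-fold, and the MM.1S ratio of 0.309-fold had an interval of 0.0365 to 1.18 from 2 UMIs. EGR1 was the most unevenly spread of these genes in HS-5 cells. Its variance over thinned monoculture cells was 2.38 times its mean, 1 cell held 7 UMIs, and 1.39% of cells had any (0.900 to 2.04%).

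ATF3 (chromosome 1, 212565334 to 212620777, plus strand), a stress-induced repressor of the ATF and CREB family, was at 9.49 CPM (99 UMIs) and 3.78 CPM (5 UMIs) in MM.1S cells alone and in coculture and at 15.0 and 14.9 CPM in HS-5 cells. Its MM.1S ratio of 0.398-fold had an interval of 0.127 to 0.961 from 5 UMIs, while the thinned shares were 0.827% and 0.794%. IER2 (chromosome 19, 13150415 to 13154908, plus strand), a small nuclear protein that follows growth signals, was at 70.4 CPM (65.4 to 75.7) and 68.8 CPM (55.4 to 84.4) in MM.1S cells and at 115 CPM (106 to 124) and 131 CPM (117 to 146) in HS-5 cells. Neither line had a coculture difference beyond counting error, and the lines alone differed by 1.63-fold (1.47 to 1.81), under 2-fold. IER2 overlaps an antisense gene.

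**Figure D1:**
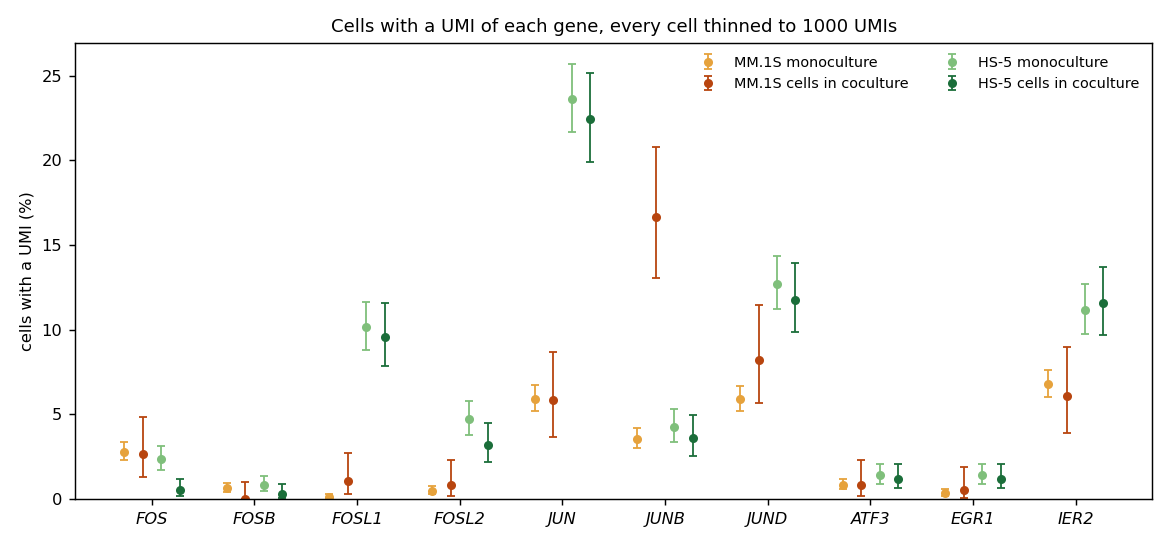
Share of cells with at least 1 UMI of each gene (y, %) after thinning every cell to 1000 UMIs, in MM.1S and HS-5 cells alone and in coculture, with exact Clopper-Pearson 95% intervals. JUNB was found in 3.54% of MM.1S cells alone and 16.7% in coculture, and JUN was found in 23.6% and 22.5% of HS-5 cells.

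Between the monocultures 5 of the 10 genes were at least 2-fold higher in HS-5 (FOSL1, FOSL2, JUN, JUND and EGR1), where 38.1% of all 8734 genes were, and 0 were lower, where 15.3% of genes were. The median log2 ratio of the 10 was 0.98 and that of all genes 0.56. Relative to that median the log2 ratios were 5.19 for FOSL1, 1.79 for FOSL2, 1.61 for JUN, 1.40 for EGR1 and 0.70 for JUND. In MM.1S cells in coculture 1 of the 10 was past 2-fold higher (JUNB; 18.9% of all 7832 genes) and 0 lower (5.78% of genes), and 4 of the 10 did not reach 10 CPM. The median of the 10 was 0.52 beside 0.24 for all genes, and it was -0.01 over cells of at least 1000 UMIs, a setting chosen after seeing the data. In HS-5 cells in coculture 0 of the 10 were higher (1.17% of all 8811 genes) and 1 lower (FOS; 1.83% of genes). The median of the 10 was -0.27 beside -0.04. These comparisons share the monoculture libraries and are not independent of each other.

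Summed over the 10 genes, the level was 288 CPM in MM.1S monoculture, 533 CPM in MM.1S cells in coculture, 824 CPM in HS-5 monoculture and 717 CPM in cocultured HS-5 cells. After thinning, 23.5% of MM.1S cells alone (22.2 to 24.9%) and 35.4% in coculture (30.6 to 40.5%) had a UMI of any of the 10, and in HS-5 the shares were 52.7% (50.4 to 55.0%) and 50.2% (47.1 to 53.3%). JUNB alone was found in 3.54% and 16.7% of these MM.1S cells. For each of the other genes the intervals of the MM.1S shares alone and in coculture overlapped. At least 2 of the genes were found in 3.36% and 6.61% of MM.1S cells and in 16.5% and 13.0% of HS-5 cells. Within each population the Pearson r of pairs of factors over thinned cells was low, with medians from -0.01 to 0.01. The highest Pearson r of a pair was 0.117 in MM.1S monoculture (FOS and FOSB, 3870 cells) and 0.112 in HS-5 monoculture (EGR1 and IER2, 1802 cells). In coculture it was 0.171 in MM.1S cells (FOS and ATF3, with both in 1 cell) and 0.105 in HS-5 cells (ATF3 and IER2). These values are too weak in such sparse counts to call the genes expressed together, and a low r here cannot show that they are unrelated. Among 2597 genes in MM.1S monoculture, KLF6 (r = 0.13) and TSC22D3 (r = 0.13) were the most like the summed factors, followed by MALAT1, EZR and NFKBIA. Their r in the 378 coculture cells lay from 0.06 to 0.17. In HS-5 monoculture LPP, TOP1, CEBPB, GADD45A and H1FX led with r from 0.07 to 0.08. Their r in the 1002 coculture cells lay from -0.02 (H1FX) to 0.10 (GADD45A).

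Many genes that act with or around AP-1 were higher in MM.1S cells in coculture, where 18.9% of all genes were. The 10 CPM minimum was set on the average of coculture and monoculture, so a gene scarce in either could enter through the other. NFIL3 entered through coculture, at 4.89 CPM alone and 55.9 CPM there. Full lists held 24 other immediate early genes, 15 partners, 20 kinases and cofactors, 18 feedback inhibitors, 24 targets and 14 heat shock genes. Genes under the minimum were left out, also from the share of all genes. Of 12 other immediate early genes past it, 9 were at least 2-fold higher in coculture and 1 lower, with a median log2 ratio of 1.81. The highest were NFIL3 (3.27), a basic leucine zipper repressor, MCL1 (2.43), a survival protein, and TRIB1 (2.40), a pseudokinase, while BTG2, an antiproliferative gene, was at 201 CPM alone and 61.2 CPM in coculture. Of 10 dimer partners 6 were higher and 0 lower (median 1.13). ATF4, the factor of the amino acid response, was at 88.6 CPM alone and 370 CPM in coculture, ATF5 had a log2 ratio of 2.01 and MAFG one of 1.96. MAF, abundant in MM.1S, was at 1097 CPM alone and 705 CPM in coculture.

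Of 15 upstream kinases and serum response factor genes, 7 were higher and 0 lower in MM.1S cells in coculture (median 0.81), led by MAP2K2 (2.48), MAPK14 (2.35) and SRF (2.03). Of 11 feedback inhibitors 6 were higher and 0 lower (median 1.07). DUSP5, a nuclear ERK phosphatase, was at 5.94 CPM alone and 115 CPM in coculture (log2 ratio 4.06), SPRED1 had a ratio of 2.11 and NAB1, a corepressor of EGR1, one of 1.65, and DUSP1 was at -0.88. Of 10 AP-1 and EGR1 targets 8 were higher (median 1.68), but the median was 0.47 once free RNA from HS-5 cells was subtracted, and the ratios of the proteases MMP1 (6.21) and MMP3 (4.48) were then -0.13 each, with CCL2 at 4.34 both times. Of 12 heat shock and handling stress genes 7 were higher and 0 lower (median 1.08), led by HSP90AA1 (2.66), HSPH1 (2.12) and HSPA1B (2.06), and their part in the values of the factors was not tested. Of 14 reference genes 1 was higher and 2 lower (median -0.22).

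In HS-5 cells in coculture, where 1.17% of all genes were higher and 1.83% lower past 2-fold, the targets held most of the listed genes past that fold. None of 14 other immediate early genes passed 2-fold (median -0.16; RHOB 0.66, KLF2 -0.86), and none of 12 feedback inhibitors did (median -0.30, DUSP5 -0.83). SRF (-1.19), which acts upstream of FOS and EGR1, was the 1 gene of 16 in its list past 2-fold, and ATF5 (-1.11) the 1 of 9 partners, both lower. Of 22 targets 6 were lower and 1 higher (median -0.15). Among the lower ones were the colony-stimulating factor CSF2 (-2.83) and the growth factor EREG (-1.16), and the chemokine CCL2 was higher (1.97). None of 13 heat shock genes and none of 14 reference genes passed 2-fold (medians 0.06 and 0.19).

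Between the monocultures 38.1% of all genes were at least 2-fold higher in HS-5, with a median log2 ratio of 0.56. Of the lists, 13 of 15 other immediate early genes (median 2.23), 6 of 9 partners (2.02), 10 of 17 kinases and cofactors (1.6), 7 of 13 feedback inhibitors (1.24) and 19 of 20 targets (5.80) were at least 2-fold higher. CYR61, a matricellular protein gene, was at 904 CPM in HS-5 and 1.44 CPM in MM.1S. Genes lower in HS-5 included MAF, at 3.58 CPM in HS-5 and 1097 CPM in MM.1S, and BTG2, at 0.326 and 201 CPM. Of 13 heat shock genes 5 were higher and 1 lower (0.70), and of 14 reference genes 1 was higher and 6 lower (-0.47).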

How the data were processed

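For each of 3 Drop-seq libraries, 1 per condition, the authors deposited unnormalized counts (UMIs of every gene in every barcode). Their processing notes name Cell Ranger 3.0.2, UMI-tools 1.0.0, STAR 2.5.3a, Subread with featureCounts 1.6.4, SAMtools 1.9 and the build GRCh38. The strand setting and annotation are not given in the sources used here. The libraries held 10433182 (MM.1S), 6143448 (HS-5) and 3981392 (coculture) UMIs.

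Cells with at least 200 genes were kept. Coculture cells with at least 5 UMIs of genes at least 50-fold and 20 CPM apart between the monocultures took the line of those UMIs, and cells with an HS-5 share from 0.2 to 0.8 were left out as doublets. No doublet caller was run. The share of free RNA, taken from genes specific to the other line, was 1.76% of UMIs in MM.1S and 0.823% in HS-5 cells. In cocultured MM.1S cells 3 counts equal 2.27 CPM. The genes and lists were chosen with earlier results of these data known. Genes named are the 10 factors, those among the 3 highest and lowest of each list per comparison, and the 5 most correlated with the summed factors per monoculture. Line markers and genes that overlap a factor are named too, outside that rule, and 1 gene picked by the rule is not reported here. The coculture log2 ratios and the share of free RNA in MM.1S cells were tested on simulated counts, and thinned totals were checked on the HS-5 monoculture cells. The other steps were not tested on simulated data. The software was Python 3.11.15, numpy 2.4.6, scipy 1.17.1 and pandas 2.3.3. Alternatives were other cell filters, scalings, pseudocounts, depths and assignment limits.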

Additional observations from a re-analysis of the deposited data

Results flagged for a closer look

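The log2 ratio of coculture over monoculture was above 0 in MM.1S and below 0 in HS-5, each beyond its counting interval, for 5 of the 10 factors. The share of all genes that met this rule was not computed, so the count is not read as particular to the factors. The medians of all genes were 0.24 in MM.1S and -0.04 in HS-5, while the intervals were set against 0. In MM.1S the lower limits of FOS (0.16), JUN (0.18) and FOSL2 (0.09) lay below that median. In HS-5 the upper limits of JUN (-0.022) and FOSL2 (-0.025) lay above it. The ratio in MM.1S minus that in HS-5 was 3.48 for FOS, 2.01 for FOSL1, 1.22 for FOSL2, 1.16 for JUND and 0.62 for JUN. The difference between the lines was not tested, since each condition is 1 library. For FOS and JUN the sign in MM.1S changed with the depth of the cells used, and for FOSL1 the MM.1S level rests on 8 UMIs. For FOSL2 the MM.1S level in coculture rests on 18 UMIs, and its log2 ratio was 0.31 with the length trend removed.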

How the results depend on the processing

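Over the alternatives run, no called difference of the 10 factors changed sign. Genes of the other lists were recomputed only with free RNA subtracted. MMP1, MMP3 and KLF2 (0.01 before, -0.02 after) in MM.1S were among those that changed sign. JUNB in MM.1S kept a log2 ratio of 1.96 to 2.44 and FOS in HS-5 one of -3.59 to -1.69, whereas FOS and JUN in MM.1S ran from -0.19 to 0.74 and from -0.23 to 0.64. Of 450 recomputed ratios of single factors, 407 shifted by less than their counting interval and 43 by more. Part of the 407 could not shift. The minimum level enters no single ratio, and assignment limits and free RNA enter only the coculture ratios. Leaving out the barcodes shared between libraries shifted no ratio by more, and subtracting free RNA shifted no coculture ratio by more. Between the monocultures the median of the 10 factors was 0.98, and 0.51 with size factors, 0.72 without mitochondrial and ribosomal protein genes and 0.77 with the length trend removed. All genes higher in HS-5 were 38.1%, and 23.9% with the length trend removed and 14.7% with no minimum level. Those lower were 15.3%, and 23.8% with size factors, 23.5% with the length trend removed and 7.09% with no minimum. In MM.1S the 1 factor past 2-fold higher became 2 over cells of 500 to 1500 UMIs, with the length trend removed and with no minimum, and 0 lower became 2 with no minimum. The median of the 10 was 0.52, and -0.01 over cells of at least 1000 UMIs. Without mitochondrial and ribosomal protein genes in the totals it was 0.35. The log2 ratio of JUNB was then 2.11, beside 2.28, and that of JUND 0.75, beside 0.92. All genes higher were 18.9%, and 11.4% with size factors, 11.1% with a pseudocount of 10, 11.7% with the length trend removed and 10.9% with no minimum. Those lower were 5.78%, and 12% with size factors, 8.92% without mitochondrial and ribosomal protein genes and 2.95% with a pseudocount of 10. In HS-5 the 1 factor lower became 2 over cells of 500 to 1500 UMIs and with no minimum. All genes higher were 1.17%, and 4.44% with equal weight per cell, 0.522% with a pseudocount of 10, 6.76% over cells of 500 to 1500 UMIs and 3.31% with no minimum, and those lower were 1.83%, and 3.56%, 0.59%, 5.37% and 3.68% under the same settings. The cause was not tested. No paired analysis was possible because each condition is 1 library and the labels carry no replicate numbers. The 378 MM.1S coculture cells with at least 1000 UMIs limit every share given for them, and factors of 1 to 8 UMIs there are known only within their intervals.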
